A study of Homo sapiens with 4 samples.

Results

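The genes of cholesterol synthesis, uptake, storage and export were followed in RNA-seq data from LNCaP, a human prostate cancer cell line that responds to androgen. The set was chosen by gene function, but with earlier results of these data known. It holds 30 of the 60675 annotated genes: 7 enzymes from acetyl-CoA to farnesyl diphosphate, 12 enzymes from squalene to cholesterol, 4 genes of the SREBP-2 system, the isoprenoid branch enzyme GGPS1, and 6 genes of sterol transport, storage, uptake and export. All 30 were among the 17600 genes that passed the filter on low counts. Total RNA came from cells kept for 72 h with R1881, a synthetic androgen, at 1 nM, in phenol red-free medium with hormone-depleted serum. In 2 libraries the cells received R1881 and the DMSO vehicle. In the other 2 they received R1881 and 50 µM CPI-455, an inhibitor of the KDM5 family of histone H3 lysine 4 demethylases. Every library therefore carries androgen, and the comparison asks how transcript levels in androgen-treated cells of 1 cell line differ with and without CPI-455.

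Cholesterol is built from acetyl-CoA through mevalonate, isoprenoid diphosphates, squalene and lanosterol. When sterols in the endoplasmic reticulum run low, the escort protein SCAP carries the membrane-bound precursor of SREBP-2 to the Golgi, where it is cleaved, and the released fragment enters the nucleus and activates most genes of the pathway. INSIG proteins hold SCAP back when sterols are plentiful, and INSIG1 is itself a target of SREBP-2, so the loop carries its own brake. Prostate cancer cells use cholesterol for membranes, for storage as esters and as the precursor of steroids.

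Replicates 1 and 2 had 19623553 and 20690819 fragments on genes with vehicle but only 9522920 and 5401588 with CPI-455, so treated values rest on fewer fragments. Levels are given as CPM, counts scaled to library size with TMM factors, and 3 counts are worth 0.137 to 0.142 CPM in the vehicle libraries and 0.337 to 0.595 CPM in the treated ones. The long non-coding RNA MALAT1 took 0.0884 to 0.114% of counts with vehicle and 4.95 to 6.49% with CPI-455. A gene was called when its change passed a false discovery rate (FDR) of 0.05 over all 17600 genes tested (edgeR quasi-likelihood test, Benjamini-Hochberg) and reached 2-fold. Of 6 prostate luminal markers (KLK3, KLK2, TMPRSS2, FOLH1, KRT8 and KRT18), 3 were called lower with CPI-455, namely KLK3, FOLH1 and KRT8. KLK2 went the other way below 2-fold, at 84.2 and 64.4 CPM with vehicle and 108 and 111 CPM with CPI-455 (log2 fold change 0.56, FDR 0.00833), and the 6 summed to 695 to 760.0 CPM in the vehicle libraries and 357 to 406 CPM in the treated ones. The 6 fibroblast markers summed to 4.49 to 5.49 CPM and 10.5 to 10.7 CPM in the same order. COL1A1 was the only one that could be tested, and it was called higher (FDR 0.0195). The rise was not shared by the set. COL3A1 fell from 4 and 6 fragments to 0 and 0, and PDGFRB from 6 and 4 to 2 and 0. COL1A2 went from 1 and 0 to 0 and 15, so its treated level rests on replicate 2. DCN had 1 fragment, in CPI-455 replicate 1, while LUM had no count in any library. The 4 leukocyte markers summed to 0.137 to 0.379 CPM and 1.24 to 2.38 CPM, and none could be tested. The treated sums rest on few counts, 8 and 0 for PTPRC and 3 and 12 for CD14, while CD3E and LYZ had no treated count. The part of depth, MALAT1 and these markers in the differences of the sterol genes was not tested. In bulk RNA, fewer cells of a type and less RNA per cell cannot be told apart.

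CPI-455 upregulated 7 of the 30 sterol genes, namely HMGCS1, MVD, IDI1, FDFT1, MSMO1, HSD17B7 and INSIG1. It downregulated 4, namely CYP51A1, LBR, SOAT1 and ABCA1. Among all genes tested, 21.0% were called higher and 21.3% lower, or 42.4% in either direction. Among the protein-coding genes tested, the shares were 15.6% and 24.4%. The sterol genes had 23.3% and 13.3%, and with so few genes neither count is a result about the set. The median log2 fold change (CPI-455 over vehicle) of the 30 genes was 0.05, beside -0.04 for all genes tested and -0.21 for the protein-coding ones. A further 10 sterol genes passed the FDR below 2-fold, 4 of them higher and 6 lower, and 9 did not pass it. In all, 21 of 30 passed the FDR at any fold, beside 62.6% of genes tested. The 2 groups did not overlap for 25 of the 30 genes, beside 81.9% of genes tested. CPI-455 was above vehicle for 13 of them and below for 12, beside 39.1% and 42.8%. The data are therefore given gene by gene, in the order of the pathway.

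**Figure D1:**
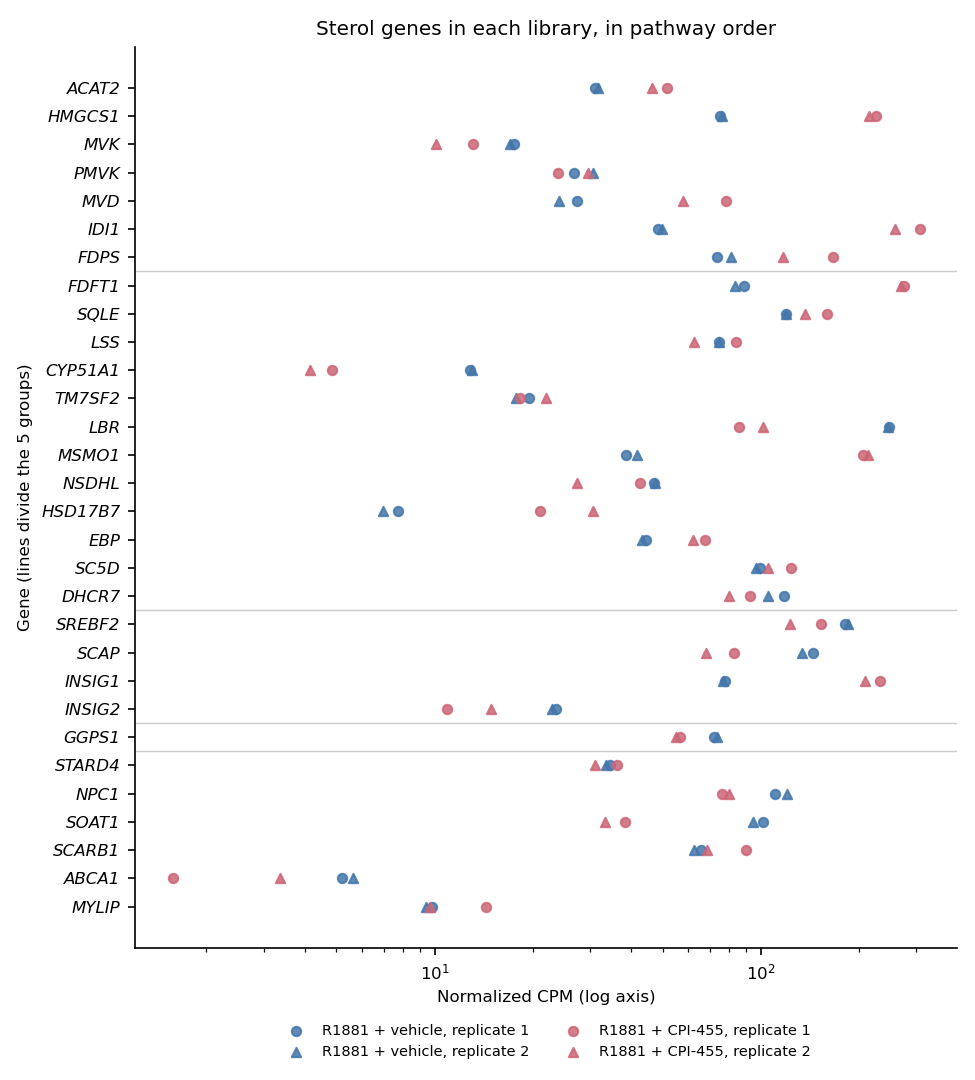
Normalized CPM (log axis) of each of the 30 sterol genes in each of the 4 libraries, with vehicle in blue and CPI-455 in red, replicate 1 as circles and replicate 2 as triangles. IDI1 and MSMO1 lie furthest to the right of their vehicle values with CPI-455, while LBR, SOAT1, CYP51A1 and ABCA1 lie to the left.

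**Figure D2:**
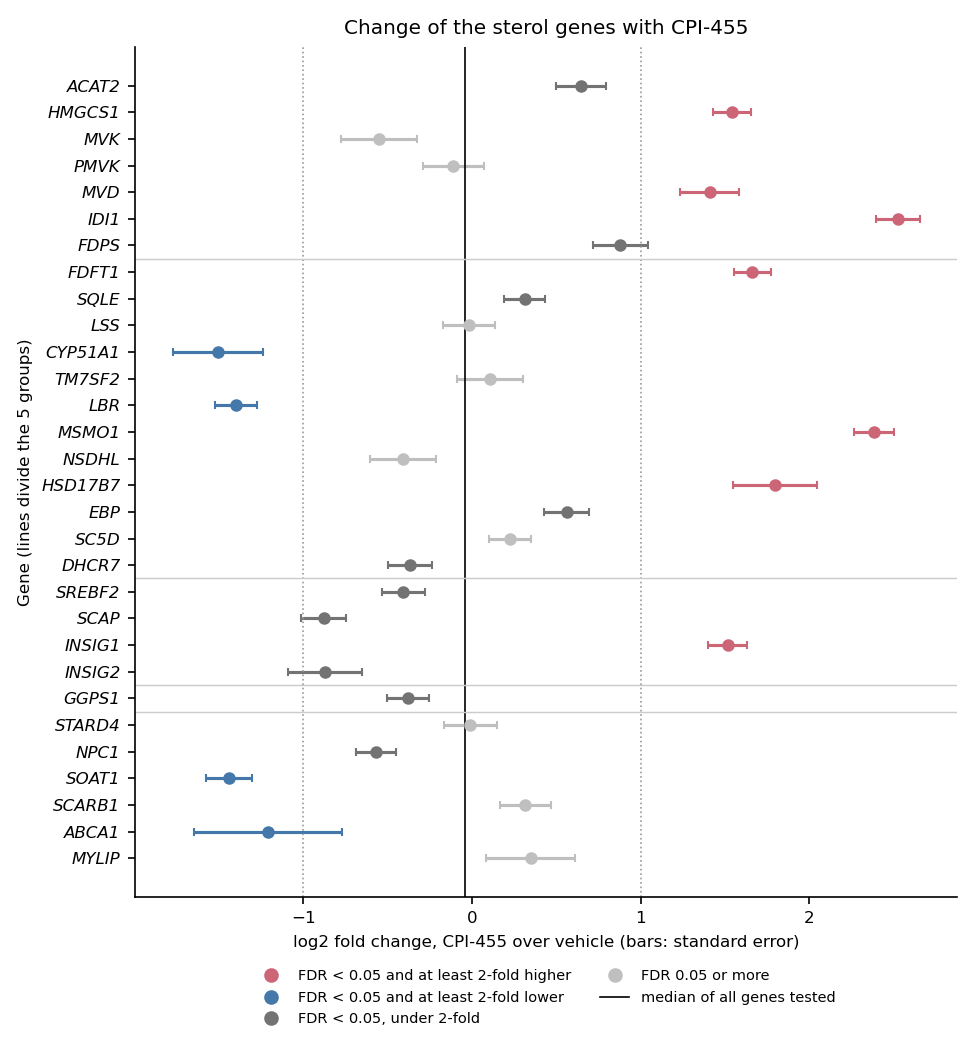
log2 fold change (CPI-455 over vehicle) with its standard error for the 30 sterol genes, in pathway order, from the fit over 17600 genes, with called genes in red (higher) and blue (lower), genes past the FDR below 2-fold in dark grey, a solid line at the median of all genes and dotted lines at 2-fold. The 7 genes called higher run from 1.41 (MVD) to 2.52 (IDI1) and the 4 called lower from -1.51 (CYP51A1) to -1.21 (ABCA1).

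In the early pathway, 3 of 7 enzymes were upregulated and none was downregulated, beside 21.0% and 21.3% of all genes tested. With so few genes, neither count is a result about this group. IDI1 (chr10:1039908-1049170, minus strand, GRCh38), the isomerase that turns isopentenyl diphosphate into dimethylallyl diphosphate, had 48.5 and 49.8 CPM with vehicle and 307 and 257 CPM with CPI-455. Both CPI-455 values were far above both vehicle values, and the rise was 5.75-fold (log2 fold change 2.52, SE 0.13, FDR 8.886e-07). Of its exon bases, 17.9% also lie in the antisense gene IDI2-AS1, and fragments there were not counted because the counting did not use strand. HMGCS1 (chr5:43289395-43313512, minus strand), which makes HMG-CoA from acetoacetyl-CoA and acetyl-CoA, was at 75.3 and 75.9 CPM with vehicle and 226 and 215 CPM with CPI-455. The replicates lay close together in both groups, and the level rose 2.91-fold (log2 fold change 1.54, SE 0.11, FDR 4.203e-06). MVD (chr16:88651935-88663161, minus strand), the decarboxylase that produces isopentenyl diphosphate, was at 27.4 and 24.1 CPM with vehicle and 78.0 and 57.7 CPM with CPI-455. It rose 2.66-fold (log2 fold change 1.41, SE 0.18, FDR 1.055e-04), with a wider spread between the CPI-455 replicates than for HMGCS1.

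The other 4 early enzymes were not called. FDPS, the farnesyl diphosphate synthase, was at 73.6 and 81.0 CPM with vehicle and 166 and 117 CPM with CPI-455. Its groups did not overlap, but the difference was 1.84-fold (log2 fold change 0.88, SE 0.16, FDR 0.0013). Its log2 fold change was 1.06 without CPI-455 replicate 2, the lower of the treated values, and 0.58 without CPI-455 replicate 1. ACAT2, the cytosolic thiolase that condenses acetyl-CoA, had 31.0 and 31.8 CPM with vehicle and 51.6 and 46.4 CPM with CPI-455, a difference of 1.57-fold at FDR 0.00387. As 52.3% of its exon bases are shared with TCP1 and another gene and only 2052 are its own, its level is less sure than those of its neighbours in the pathway. Both kinases had lower mean levels with CPI-455, and neither passed the FDR. MVK, which phosphorylates mevalonate, was at 17.5 and 17.1 CPM with vehicle and 13.2 and 10.1 CPM with CPI-455 (log2 fold change -0.55, SE 0.22, FDR 0.0559). PMVK, which adds the next phosphate, was at 26.7 and 30.6 CPM with vehicle and 24.0 and 29.5 CPM with CPI-455, and its groups overlapped (log2 fold change -0.11, SE 0.18, FDR 0.616). With the length and GC trend removed PMVK, whose exons are the shortest of the 30 genes, was at -0.83 and passed the FDR below 2-fold (FDR 0.00656). The summed CPM of the 7 early genes was 300 and 310 with vehicle against 865 and 733 with CPI-455, a ratio of group means of 2.62, and IDI1 and HMGCS1 together made up most of the treated sums.

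Within a library the ratio of the counts of 2 genes needs no scaling between libraries. These ratios are not corrected for gene length, so only their difference between the groups is read. Which pairs to show was decided with their values known. HMGCS1 had 4.31 and 4.45 fragments for each MVK fragment with vehicle against 17.2 and 21.2 with CPI-455. IDI1 had 0.659 and 0.614 fragments for each FDPS fragment with vehicle against 1.85 and 2.20 with CPI-455. Per exon length, FDPS was the higher of the pair with vehicle (20.8 against 13.7 FPKM, fragments per kilobase of exon on the CPM scale) and IDI1 with CPI-455 (78.6 against 38.1 FPKM). The ratio of MVD to PMVK was 1.02 and 0.787 with vehicle against 3.26 and 1.95 with CPI-455.

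From squalene to cholesterol, 3 of 12 enzymes were upregulated and 2 downregulated, beside 21.0% and 21.3% of all genes tested. These counts too are of few genes. FDFT1 (chr8:11795573-11839309, plus strand), squalene synthase, which commits farnesyl diphosphate to sterols, was at 89.0 and 83.1 CPM with vehicle and 276 and 269 CPM with CPI-455. The treated replicates were nearly equal and well above vehicle, with a 3.17-fold rise (log2 fold change 1.66, SE 0.11, FDR 2.881e-06). MSMO1 (chr4:165327623-165343160, plus strand), the sterol C-4 methyl oxidase, was at 38.7 and 41.8 CPM with vehicle and 206 and 214 CPM with CPI-455. It rose 5.21-fold (log2 fold change 2.38, SE 0.12, FDR 7.878e-07) with little spread in either group. HSD17B7 (chr1:162790702-162812817, plus strand), the 3-keto-sterol reductase of the same C-4 demethylation, was at 7.72 and 6.96 CPM with vehicle and 21.0 and 30.5 CPM with CPI-455. It rose 3.47-fold (log2 fold change 1.80, SE 0.25, FDR 1.904e-04), on 152 to 187 counts in every library. Its pseudogenes HSD17B7P1 and HSD17B7P2 together had 50 and 59 counts with vehicle against 102 and 75 with CPI-455, so some fragments of these near-identical copies may be assigned unevenly.

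NSDHL, the decarboxylating dehydrogenase that acts between MSMO1 and HSD17B7, was not called. Its levels were 47.1 and 47.3 CPM with vehicle and 42.6 and 27.4 CPM with CPI-455 (log2 fold change -0.41, SE 0.20, FDR 0.0981). MSMO1 had 0.821 and 0.884 fragments for each NSDHL fragment with vehicle against 4.83 and 7.82 with CPI-455. The geometric means of the groups differed 7.21-fold, the widest difference of the 11 ratios computed.

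LBR and CYP51A1 were lower with CPI-455. LBR (chr1:225401502-225428925, minus strand), the lamin B receptor of the inner nuclear membrane, which is also a sterol C-14 reductase, was at 247 and 246 CPM with vehicle and 85.9 and 102 CPM with CPI-455. It fell 2.63-fold (log2 fold change -1.40, SE 0.12, FDR 1.298e-05). When a trend on exon length and GC content was removed from each library, the log2 fold change was -0.96 and the call was lost. TM7SF2, the other sterol C-14 reductase, was at 19.5 and 17.8 CPM with vehicle and 18.3 and 22.0 CPM with CPI-455, and the groups overlapped (log2 fold change 0.11, SE 0.20, FDR 0.663). LBR thus had 12.7 and 13.9 fragments for each TM7SF2 fragment with vehicle against 4.69 and 4.63 with CPI-455. Per exon length LBR was the higher of the pair in both groups, at 46.9 against 5.46 FPKM with vehicle and 17.9 against 5.92 FPKM with CPI-455. CYP51A1 (chr7:92112151-92142952, minus strand), lanosterol 14-alpha demethylase, was at 12.9 and 13.0 CPM with vehicle and 4.84 and 4.16 CPM with CPI-455. Its value fell 2.84-fold (log2 fold change -1.51, SE 0.27, FDR 9.942e-04). This gene is uncertain, since 82.2% of its exon bases overlap LRRD1 or CYP51A1-AS1 and were left out of the counting, which leaves 725 bases and 21 to 284 counts per library.

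The remaining 6 enzymes of this stretch were not called. SQLE, squalene epoxidase, a rate-limiting step after squalene, was at 119 and 120 CPM with vehicle and 160 and 137 CPM with CPI-455, a difference of 1.24-fold that passed the FDR narrowly (log2 fold change 0.31, SE 0.12, FDR 0.0462). EBP, the sterol isomerase, was at 44.5 and 43.4 CPM with vehicle and 67.5 and 61.9 CPM with CPI-455 (log2 fold change 0.56, SE 0.13, FDR 0.00515). DHCR7, which makes cholesterol from 7-dehydrocholesterol, was lower by less than 2-fold, at 118 and 105 CPM with vehicle and 92.5 and 79.9 CPM with CPI-455 (log2 fold change -0.37, SE 0.13, FDR 0.033). SC5D, the lathosterol desaturase just before DHCR7, did not pass the FDR, with 99.7 and 97.0 CPM with vehicle and 124 and 105 CPM with CPI-455 (FDR 0.143). LSS, which cyclizes squalene epoxide to lanosterol, was at 74.5 and 74.7 CPM with vehicle and 83.9 and 62.3 CPM with CPI-455. Its treated replicates fell on either side of the vehicle values (log2 fold change -0.02, SE 0.15, FDR 0.92). FDFT1 had 0.744 and 0.695 fragments for each SQLE fragment with vehicle against 1.72 and 1.97 with CPI-455. Per exon length SQLE was the higher with vehicle (27.8 against 16.5 FPKM) and FDFT1 with CPI-455 (52.3 against 34.4 FPKM).

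Per exon length (FPKM), the order of the 30 genes differed between the groups. With vehicle, LBR was the highest at 46.9 FPKM, followed by SQLE at 27.8 and DHCR7 at 26.8. With CPI-455, IDI1 was the highest at 78.6 ± 9.78 FPKM (SD, n = 2), up from rank 17 and a level of 13.7 ± 0.255, and MSMO1 was next at 72.6, up from rank 16 and 13.9. INSIG1 was at rank 3 with 60.3 FPKM and FDFT1 at rank 4 with 52.3. The treated range of IDI1 (71.7 to 85.5 FPKM) held 1 of the values of MSMO1 (74.0) and lay just above the other (71.1), so the order of these neighbours is within their spread. LBR was at rank 13 with 17.9 FPKM. ABCA1 was the lowest of the 30 genes in both groups, at 0.478 and 0.218 FPKM. MVK and HSD17B7 were also near the bottom with vehicle, at 2.67 and 1.78 FPKM. CYP51A1 was at 3.18 FPKM with vehicle, but its place in this order is not sure. FPKM divides by all exon bases, and 82.2% of those of CYP51A1 were left out of the counting, so its level is understated. The same holds to a lesser degree for ACAT2, with 52.3% of its exon bases shared. Summed over the 19 enzymes, the level was 1217 and 1207 CPM with vehicle and 2047 and 1848 CPM with CPI-455, 1.61 times as high. The 6 upregulated enzymes held 23.5 and 23.3% of this sum with vehicle against 54.4 and 56.5% with CPI-455. The share of the other 13 enzymes was 76.5 and 76.7% with vehicle against 45.6 and 43.5% with CPI-455. The 6 enzymes were grouped by their calls in these same libraries. The direction of both shares follows from that choice and is no separate result.

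**Figure D3:**
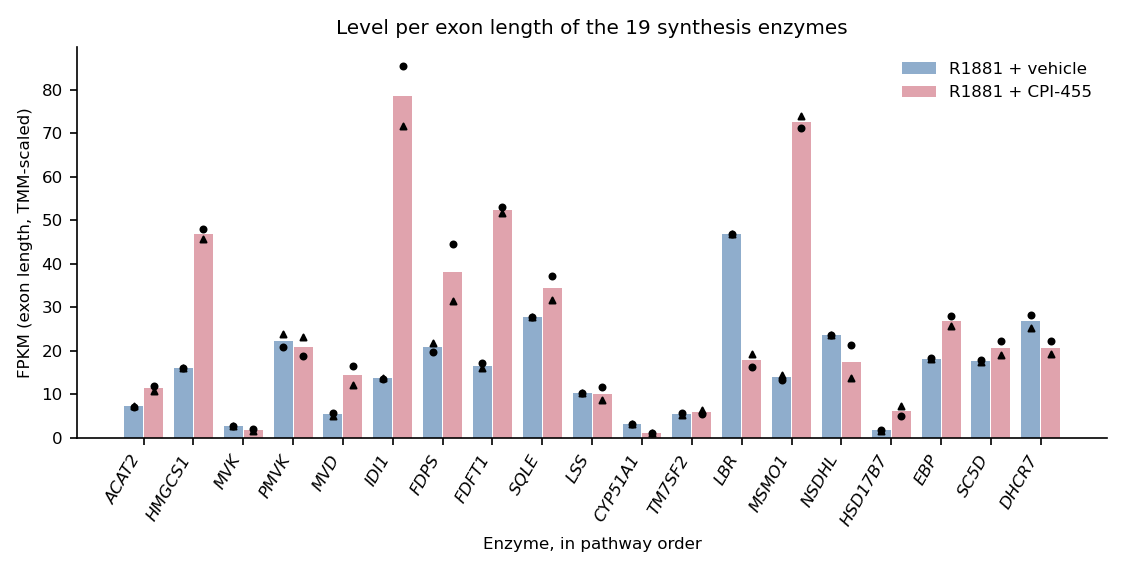
Level per exon length (FPKM after TMM scaling) of the 19 synthesis enzymes in pathway order, with bars for the mean of 2 libraries per group and points for each library. IDI1 rises from 13.7 to 78.6 and MSMO1 from 13.9 to 72.6, while LBR falls from 46.9 to 17.9.

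Of the SREBP-2 system, INSIG1 was upregulated and the other 3 genes were lower by less than 2-fold. INSIG1 (chr7:155297776-155310235, plus strand), which retains SCAP in the endoplasmic reticulum, was at 77.6 and 76.6 CPM with vehicle and 231 and 209 CPM with CPI-455. It rose 2.86-fold (log2 fold change 1.51, SE 0.12, FDR 5.654e-06), with no overlap. INSIG2 (chr2:118088452-118110997, plus strand), its paralog, which is not under the same SREBP control, was at 23.5 and 22.9 CPM with vehicle and 10.9 and 14.9 CPM with CPI-455, lower by 1.83-fold (log2 fold change -0.87, SE 0.22, FDR 0.00639). Its log2 fold change was -1.13 without CPI-455 replicate 2 and -0.66 without CPI-455 replicate 1. It no longer passed the FDR with the length and GC trend removed, at -0.49 (FDR 0.0576). The count of INSIG1 was 3.30 and 3.34 times that of INSIG2 with vehicle against 21.2 and 14.0 times with CPI-455. SCAP, the escort protein, was at 144 and 133 CPM with vehicle and 82.5 and 67.8 CPM with CPI-455 (log2 fold change -0.88, SE 0.13, FDR 3.640e-04). The log2 fold change of SCAP was -1.05 without CPI-455 replicate 1 and -0.79 without CPI-455 replicate 2. SREBF2, which encodes SREBP-2, was at 182 and 185 CPM with vehicle and 152 and 123 CPM with CPI-455, 1.33-fold lower (log2 fold change -0.41, SE 0.13, FDR 0.0206). INSIG1 had 0.537 and 0.574 fragments for each SCAP fragment with vehicle against 2.80 and 3.08 with CPI-455.

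SREBP-2 binds sterol regulatory elements, and its target promoters commonly also hold a CCAAT box, bound by NF-Y, or a GC box, bound by SP1. Promoters (250 bases before to 50 after each RefSeq start, GRCh38.p14) were at hand for 26 of the 30 genes and were searched on both strands. The core TCACNCCAC was found in 1.39% of the 27305 genes with a promoter entry and in 1 of the 26 sterol genes, SREBF2 itself, 133 to 125 bases before its start. The stretch around it is shown because it is the only match among these genes, with the core in capitals. It lies at chr22:41832927-41833025 on the plus strand, upstream of the Ensembl gene model (chr22:41833079-41907308).
SREBF2: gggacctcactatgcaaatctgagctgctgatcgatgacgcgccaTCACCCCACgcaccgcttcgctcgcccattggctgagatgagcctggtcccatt
Since only these letters were searched, the absence of a match elsewhere says nothing of binding. SREBF2 carries this core and was lower by 1.33-fold, while none of the upregulated genes with an entry had it in the window.

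The CCAAT box was found in 39.7% of all genes and in 19 of the 26 sterol genes, and the GC box GGGCGG in 48.3% and in 24 of 26. All 6 upregulated genes with an entry held a CCAAT box, as did 12 of the 16 that were not called. Of the 4 downregulated genes, SOAT1 held one and CYP51A1, LBR and ABCA1 did not. These are counts in a small set, read after the calls were known, and no test was made on them. The 150 bases before a RefSeq start are shown for 4 upregulated enzymes, with CCAAT or its reverse complement ATTGG in capitals, to let the spacing be compared. The choice of these 4 was made with the values known. The IDI1 window is chr10:1048887-1049036 (minus strand) and lies within the first exon of the Ensembl model. The HMGCS1 window is chr5:43313413-43313562 (minus strand) and the MSMO1 window chr4:165327519-165327668 (plus strand), and both reach into the first Ensembl exon. The HSD17B7 window is chr1:162790552-162790701 (plus strand) and ends just before the gene.
HMGCS1: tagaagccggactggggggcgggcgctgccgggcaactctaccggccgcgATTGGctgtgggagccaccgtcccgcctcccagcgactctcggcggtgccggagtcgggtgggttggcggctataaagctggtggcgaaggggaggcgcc
IDI1: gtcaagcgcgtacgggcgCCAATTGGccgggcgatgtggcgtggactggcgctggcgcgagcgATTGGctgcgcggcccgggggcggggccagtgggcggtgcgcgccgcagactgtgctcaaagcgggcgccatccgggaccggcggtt
MSMO1: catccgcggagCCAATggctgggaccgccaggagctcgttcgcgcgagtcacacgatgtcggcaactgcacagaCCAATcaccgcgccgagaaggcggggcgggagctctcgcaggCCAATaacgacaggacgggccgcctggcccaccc
HSD17B7: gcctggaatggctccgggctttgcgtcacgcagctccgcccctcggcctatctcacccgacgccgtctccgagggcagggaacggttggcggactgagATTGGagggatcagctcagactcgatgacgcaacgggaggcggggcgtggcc
The windows shown for IDI1 and MSMO1 held 3 matches each, and those for HMGCS1 and HSD17B7 held 1 each. For genes with several RefSeq starts, the start with the most matches is shown, and the other entries held 0 and 2 for IDI1 and 0 for HMGCS1. The overlapping pair in IDI1 (CCAATTGG) is a match on each strand. In the whole promoter entry MVD, with the smallest rise of the upregulated genes, held 3 matches, and MVK and NSDHL, which did not pass the FDR and whose treated values were the lower ones, held 5 each, so the number of matches did not follow the direction of change in every gene.

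**Figure D4:**
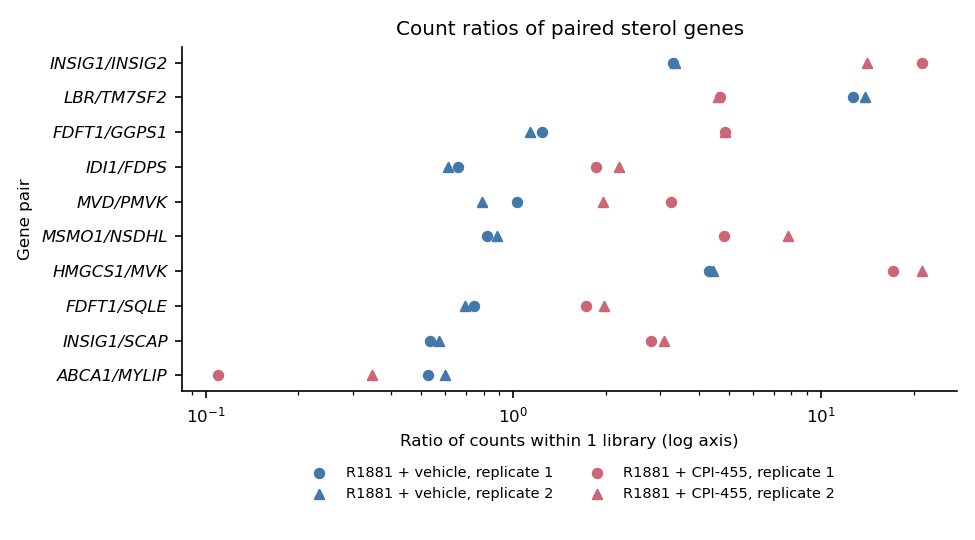
Ratio of counts within a library (log axis) for pairs of sterol genes, with vehicle in blue and CPI-455 in red, replicate 1 as circles and replicate 2 as triangles. In each pair plotted, the vehicle and CPI-455 values do not overlap. The pairs were chosen with their values known, and the groups do not overlap for 81.9% of single genes tested, so this is no separate result. MSMO1 to NSDHL and INSIG1 to SCAP differ by 7.21-fold and 5.29-fold between the geometric means of the groups.

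Beyond cholesterol itself, GGPS1, which makes geranylgeranyl diphosphate for protein prenylation, was at 72.1 and 73.2 CPM with vehicle and 56.6 and 55.1 CPM with CPI-455. The replicates were close and the difference was below 2-fold (log2 fold change -0.38, SE 0.13, FDR 0.0255), and with the length and GC trend removed it was at -0.06 (FDR 0.697). FDFT1 and GGPS1 draw on the same precursor, and the count of FDFT1 was 1.23 and 1.14 times that of GGPS1 with vehicle against 4.87 and 4.88 times with CPI-455.

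Among the 6 genes of transport, storage, uptake and export, 2 were downregulated and none was upregulated, beside 21.3% and 21.0% of all genes tested. With so few genes, neither count is a result about this group. SOAT1 (chr1:179293714-179358680, plus strand), which esterifies cholesterol for storage in lipid droplets, was at 101 and 94.5 CPM with vehicle and 38.3 and 33.3 CPM with CPI-455. It fell 2.72-fold (log2 fold change -1.44, SE 0.14, FDR 2.044e-05), with no overlap, and it was at -0.91 and not called once a trend on length and GC content was removed. ABCA1 (chr9:104781002-104928237, minus strand), the exporter that loads cholesterol onto apolipoprotein A-I, was lowly expressed. Its counts were 110 and 123 in the vehicle libraries but 14 and 17 in the treated ones, or 5.21 and 5.63 CPM against 1.57 and 3.37 CPM. The treated values were below both vehicle values but differed from each other more than 2-fold, and the call was narrow (log2 fold change -1.21, SE 0.44, FDR 0.0366). The call was lost in 10 of 19 alternatives, among them those without either vehicle library (-1.24 without replicate 1 and -1.13 without replicate 2), without CPI-455 replicate 1 (-0.70) and with the length and GC trend removed (-0.81).

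NPC1, which moves cholesterol out of lysosomes, was lower by less than 2-fold, at 110 and 120 CPM with vehicle and 76.0 and 79.7 CPM with CPI-455 (log2 fold change -0.57, SE 0.12, FDR 0.00262). It did not pass the FDR with the length and GC trend removed, at -0.19 (FDR 0.138). SCARB1, the HDL receptor for selective cholesterol uptake, was at 65.6 and 62.5 CPM with vehicle and 90.0 and 68.4 CPM with CPI-455, and did not pass the FDR (0.0965). STARD4, a soluble sterol carrier, was at 34.6 and 33.7 CPM with vehicle and 36.2 and 31.1 CPM with CPI-455, and its groups overlapped (log2 fold change -0.01, SE 0.16). With the length and GC trend removed its sign turned and it passed the FDR below 2-fold, at 0.53. MYLIP, a ubiquitin ligase induced by LXR that limits lipoprotein uptake, was at 9.85 and 9.43 CPM with vehicle and 14.4 and 9.72 CPM with CPI-455, which overlapped (log2 fold change 0.35, SE 0.26, FDR 0.277). The summed level of the 6 genes was 327 and 326 CPM with vehicle and 257 and 226 CPM with CPI-455, 0.738 times as high.

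Other genes of the pathway were counted from 4 lists chosen by function, also with earlier results of these data known. Of 32 genes listed, 28 could be tested, 5 were called higher and 8 lower, beside 21.0% and 21.3% of all genes tested, and their median log2 fold change of -0.20 was close to the -0.21 of protein-coding genes. The counts by list below are of few genes and are read against the same shares. In the machinery that processes SREBPs and degrades sterol-regulated proteins, 2 of 6 genes were downregulated and none was upregulated, beside 21.3% and 21.0% of all genes. MBTPS2, the site-2 protease that releases SREBPs from the membrane, went from 94.1 and 110 CPM to 26.0 and 20.8 CPM (log2 fold change -2.11, SE 0.16, FDR 5.888e-06). ERLIN2, of the complex that marks sterol-regulated proteins of the endoplasmic reticulum for degradation, went from 142 and 134 CPM to 30.1 and 47.4 CPM (log2 fold change -1.86, SE 0.19, FDR 3.013e-05). Both falls were larger than that of any of the 30 sterol genes. SREBF1, which encodes the SREBP-1 proteins, was higher by less than 2-fold (log2 fold change 0.53, SE 0.12, FDR 0.00459), and its count per SREBF2 count was 0.426 and 0.397 with vehicle against 0.758 and 0.827 with CPI-455.

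Among 10 prenyl transferase, dolichol and ubiquinone genes, 3 were upregulated and 2 downregulated. RABGGTB, a subunit of Rab geranylgeranyl transferase, rose from 55.9 and 47.3 CPM to 316 and 337 CPM (log2 fold change 2.66, SE 0.13, FDR 7.521e-07). NUS1, of the dolichol-making cis-prenyl transferase, fell from 143 and 146 CPM to 34.0 and 50.0 CPM (log2 fold change -1.81, SE 0.17, FDR 2.013e-05). Among the 9 tested genes of intracellular sterol transport and esters, 2 were upregulated and 3 downregulated. NCEH1, a cholesteryl ester hydrolase, fell by 1.84 on the log2 scale (SE 0.28, FDR 3.497e-04). LIPA, the lysosomal acid lipase, fell by 1.22 on that scale (SE 0.18, FDR 3.172e-04). LIPA was not called once the length and GC trend was removed, at -0.81, nor when thinned to equal depth (-0.94), by glmTreat (FDR 0.123) or without CPI-455 replicate 1, where it fell just short of 2-fold. Of the LXR and oxysterol genes, ABCG1, a sterol exporter and LXR target like ABCA1, fell from 10.5 and 11.8 CPM to 4.95 and 1.98 CPM (log2 fold change -1.59, SE 0.37, FDR 0.0048). This rested on 44 and 10 treated counts, and the log2 fold change was -2.50 without CPI-455 replicate 1 and -1.21 without CPI-455 replicate 2, while glmTreat did not call it (FDR 0.0792). NR1H2, which encodes LXR-beta, had a log2 fold change of -0.02 (FDR 0.911). SOAT2, CH25H, CYP27A1 and CYP7B1 had too few counts to be tested.

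Gene length went with the direction of change in these libraries. The median exon length was 4124 bases for the 7 upregulated sterol genes, 6131 for the 4 downregulated and 4299 for the 19 not called, beside 4292 for all genes tested. Spearman's rho between exon length and log2 fold change was -0.39 across the 30 genes and -0.25 across the 17600 genes tested, and with exon GC content it was -0.03 and 0.15. Genes share libraries and are not independent replicates, so these values are descriptions. With a smooth trend on length and GC content removed, the 7 upregulated genes were still called, and of the 4 downregulated ones CYP51A1 was. Of the genes not called, INSIG2, GGPS1 and NPC1 no longer passed the FDR, while PMVK, NSDHL (-0.57), SC5D (0.72), SCARB1 (0.46) and STARD4 passed it below 2-fold.

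**Figure D5:**
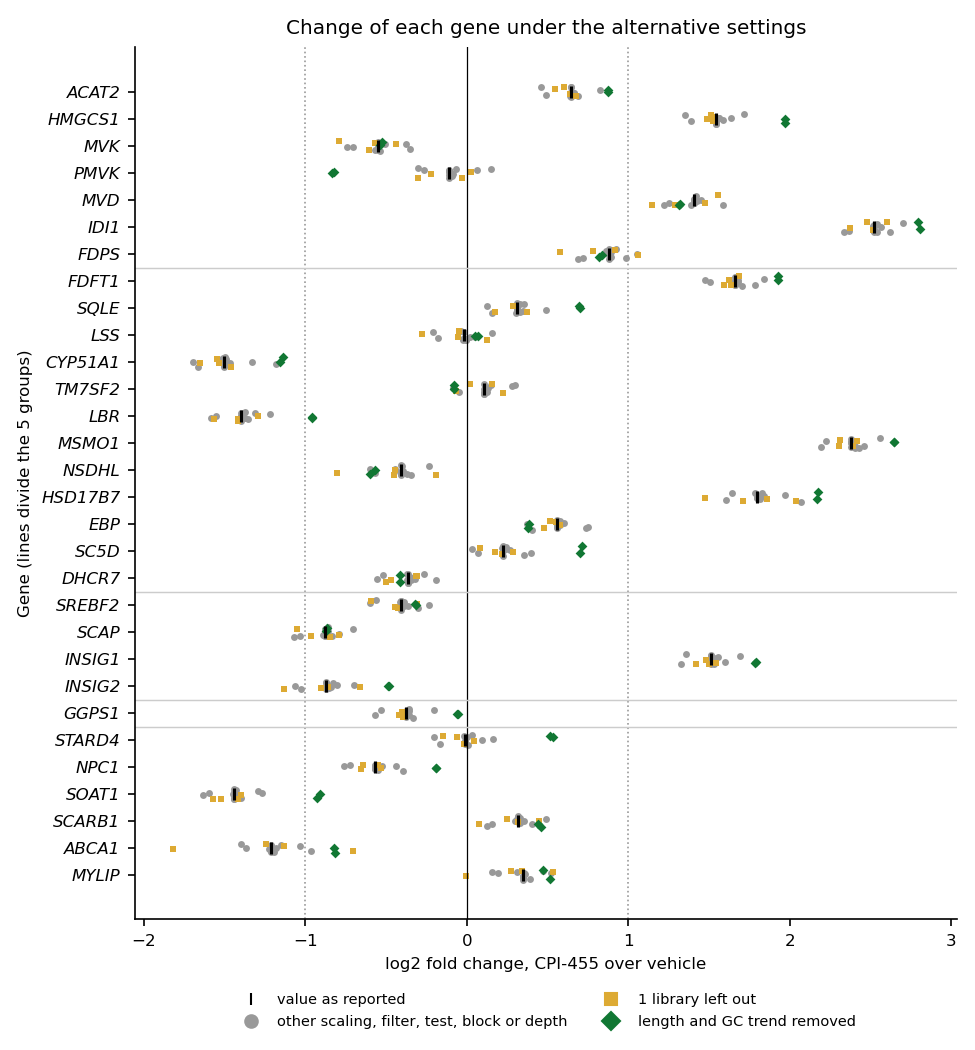
log2 fold change (CPI-455 over vehicle) of each sterol gene as reported (black ticks) and under 19 alternatives, with dotted lines at 2-fold in either direction. All points of the 7 upregulated genes lie beyond 2-fold, while LBR, SOAT1 and ABCA1 cross it when the length and GC trend is removed.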

How the data were processed

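RNA-seq of 4 LNCaP libraries (2 with R1881 and vehicle, 2 with R1881 and CPI-455) was analysed, grouped by the sample labels. The study's methods call the samples biological replicates. The p-values set the difference between the groups against the spread between these libraries, estimated with information shared across genes. After trimming and STAR alignment to GRCh38, the authors deposited raw fragment counts per gene, made with featureCounts v1.5.0-p1 on Ensembl release 83. Per the file headers, strand was not used and fragments on several genes or places were left out, so overlapping genes and near-identical copies are less sure.

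From these counts, genes were filtered with filterByExpr (minimum count 10), scaled with TMM and tested over all genes with glmQLFit and glmQLFTest of edgeR 4.0.16 in R 4.3.3, without covariates. A call needed an FDR (Benjamini-Hochberg) below 0.05 and at least 2-fold. CPM and FPKM are TMM-scaled, and FPKM uses the exon length in the files. On simulated counts with 200 of 17600 genes changed by a log2 fold change of 1.5, 138 (69%) were called in the right direction, and 4 others were called. The simulation changed far fewer genes than the 42.4% called in the data, so these rates may not hold for this comparison.

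All 30 genes are named. From each list of other pathway genes, the 2 called genes with the largest change are named, while SREBF1, NR1H2, the untested genes and the gene pairs were chosen after their values were seen. The members and lists were chosen with earlier results of these data known. Genes of the pathway outside these lists were not analysed here, and some listed genes are not reported here and enter no count of a list. Counting floors cover counting error only. Promoters come from RefSeq (GRCh38.p14), with no entry for ACAT2, FDFT1, SQLE and SCARB1.

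The 19 alternatives were RLE, upper-quartile and total scaling, TMM without mitochondrial genes and MALAT1, no filter, 10 counts in every library, DESeq2 1.42.0, a likelihood-ratio test, FDR below 0.01, no fold minimum, glmTreat, a replicate block, a length and GC trend (mgcv 1.9.3) without and with the block, thinning to 5401588 counts, and leaving out each library. The labels number replicates 1 and 2 in both groups, and no source says that equal numbers were grown together.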

Additional observations from a re-analysis of the deposited data

How the results depend on the processing

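The 7 genes called higher were called under all 19 alternatives, as was CYP51A1 among those called lower. The number called higher was 7 to 8 with a library left out, and 11 with no fold minimum. The number called lower was 3 to 5 with a library left out, 10 with no fold minimum, 1 with the length and GC trend removed, and 1 with that trend and the replicate block. Over all genes, 7454 were called, 5577 to 8597 with a library left out, and 4805 with glmTreat. A left-out library leaves 1 library in its group, which is then assumed to vary like the other group. Adding the replicate number as a block gave 7 higher and 4 lower sterol genes and 7167 genes in all and changed no call among the 30. Deviations of same-numbered libraries had a correlation of 0.04. With 2 libraries per group this value cannot decide whether libraries of equal number were grown together. FDPS was called higher with upper-quartile factors (1.05), and SCAP and INSIG2 lower with library totals only (-1.07 and -1.06) and with no filter (-1.03 for each). Some genes past the FDR below 2-fold did not pass it under other settings. With upper-quartile factors these were SREBF2 (-0.23, FDR 0.137), DHCR7 (-0.19, FDR 0.219) and GGPS1 (-0.20, FDR 0.183). Thinned, SREBF2 (-0.30, FDR 0.0555) and DHCR7 (-0.27, FDR 0.0947) did not pass. SQLE did not with library totals (0.12, FDR 0.395) or no filter (0.16, FDR 0.411). GGPS1 did not with DESeq2 (-0.36, FDR 0.0663). With a library left out, all genes past the FDR below 2-fold except FDPS and SCAP failed it in at least 1 fit. ACAT2 was then at 0.54 to 0.67 and EBP at 0.48 to 0.58. The median of all genes moved by 0.18 with upper-quartile factors and by -0.19 with library totals, and the share of calls that were higher was 49.6% as reported, 58.1% and 40.7%. Genes near 0 changed sign, and their log2 fold changes under those settings follow. PMVK was at 0.065 with upper-quartile factors, 0.15 thinned, -0.83 with the trend removed (also with the block), and -0.30 to 0.025 with a library left out. LSS was at 0.16 with upper-quartile factors, 0.023 with at least 10 counts in every library, 0.067 with the trend removed, 0.053 with the trend removed and the block, 0.049 thinned, and -0.28 to 0.13 with a library left out. TM7SF2 was at -0.085 with library totals, -0.049 with no filter, -0.078 with the trend removed, -0.079 with the trend removed and the block, and -0.065 to 0.22 with a library left out. STARD4 was at 0.0064 with RLE factors, 0.16 with upper-quartile factors, 0.032 with at least 10 counts, 0.0043 with DESeq2, 0.53 with the trend removed, 0.51 with the trend removed and the block, 0.097 thinned, and -0.15 to 0.043 with a library left out. MYLIP was at -0.0071 to 0.54 with a library left out. The cause of these changes was not tested. The fewest treated counts among the 30 genes were 14 and 17 for ABCA1 and 43 and 21 for CYP51A1.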
